A study of Homo sapiens with 6 samples.

Results

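The genes of fatty acid synthesis, elongation, desaturation and activation were examined in 786-O cells, an established human clear cell renal carcinoma line. The 10 genes were SCD, FASN, ACACA, ACLY, ELOVL5, ELOVL6, FADS1, FADS2, ACSL3 and ACSL4, taken by name from the 58735 genes of the deposited count table, and all 10 passed the filter on low counts that left 14573 tested genes. They were chosen by their role, but with the sh-CBX7 against sh-Control differences of these data already known, so their differences are given as a description and without a p-value. The study sequenced RNA of 3 libraries of 786-O cells labelled as carrying a CBX7 hairpin (sh-CBX7) and 3 labelled as carrying a control hairpin (sh-Control). The columns of the count table are named siCBX7 instead, and this difference in the name of the knockdown was not resolved. CBX7 is a chromobox protein of the Polycomb repressive complexes, and the series title links it to RNF26, TNF signalling, proliferation and the response to tyrosine kinase inhibitors. The labels give neither the hairpin sequences, nor the number of hairpins or clones, nor the time after knockdown, and leave unsaid whether replicates were grown separately. The p-values below therefore set each difference against the spread between these libraries, which may be technical.

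Cells build saturated fatty acids in the cytosol. ATP citrate lyase (ACLY) splits citrate into acetyl-CoA, acetyl-CoA carboxylase (ACACA) makes malonyl-CoA from it, and fatty acid synthase (FASN) joins these units into palmitate with electrons from NADPH. Enzymes of the endoplasmic reticulum then elongate the chains (ELOVL genes), place double bonds in them (SCD, FADS1, FADS2), and acyl-CoA synthetases (ACSL genes) activate free fatty acids for use in lipids. Many of these genes are targets of the SREBP transcription factors, which INSIG proteins hold back in the endoplasmic reticulum. Clear cell renal carcinoma is known for its stores of lipid and glycogen.

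The libraries held 16473407 to 18868874 counts in sh-CBX7 and 16384151 to 18006814 in sh-Control. CBX7 had 143, 111 and 142 counts in sh-CBX7, against 203, 240 and 183 counts in sh-Control. The target thus fell by 0.71 on the log2 scale (SE 0.13, edgeR adjusted p = 5.41e-05) and was still detected. All 7 markers of the renal carcinoma line were tested, and edgeR called KRT8, KRT18 and KRT19 higher in sh-CBX7 (log2 fold changes 0.44, 0.43 and 0.23), PAX8 and PAX2 lower (-0.32 and -0.49) and VIM and CA9 neither; the part of these markers in the results was not tested. PAX8 was at 225.6 ± 2.85 CPM in sh-CBX7 and 282.2 ± 10.3 CPM in sh-Control, and CA9 was near the detection limit at 1.05 ± 0.41 CPM in sh-CBX7 and 1.14 ± 0.41 CPM in sh-Control (SD, n = 3 each). CPM are counts scaled to library size with TMM normalization. The 6 adipocyte markers summed to 1.43 to 1.75 CPM in sh-CBX7 and 1.32 to 1.43 CPM in sh-Control, with LEP at 0 in every library. Immune markers summed to 0.955 to 2.03 and 1.21 to 2.10 CPM, with PTPRC and CD3E at 0, fibroblast markers to 11.0 to 12.7 and 10.04 to 11.7 CPM, and endothelial markers to 3.86 to 5.04 and 2.22 to 3.13 CPM, with CDH5 at 0 (sh-CBX7 before sh-Control in each pair). The adipocyte and the endothelial sums did not overlap between groups, and their part in the results was not tested. In bulk RNA, fewer cells of a type and less RNA per cell cannot be told apart.

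Transcripts of the fatty acid synthesis pathway took a smaller part of the library in sh-CBX7. The 10 genes together held 0.117% ± 0.000982 of all counts in sh-CBX7 and 0.228% ± 0.0063 in sh-Control (SD, n = 3 each). SCD, the delta-9 desaturase, differed the most, FASN and ACLY followed, and ACSL4 alone had overlapping groups. The median log2 fold change of the 10 genes was -0.70, and that of all tested genes was -0.006. In the edgeR fit over all genes, 9 of the 10 were called lower and 0 higher at an adjusted p below 0.05, where 27.2% of tested genes were called lower, 26.1% higher and 53.3% in either direction. At an unadjusted p below 0.05, and with DESeq2 and limma voom, the count of higher members was also 0. The values of the groups did not overlap for 9 of the 10, against 59.0% of tested genes. Since the choice was made with this contrast known, nothing is read from these counts.

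**Figure D1:**
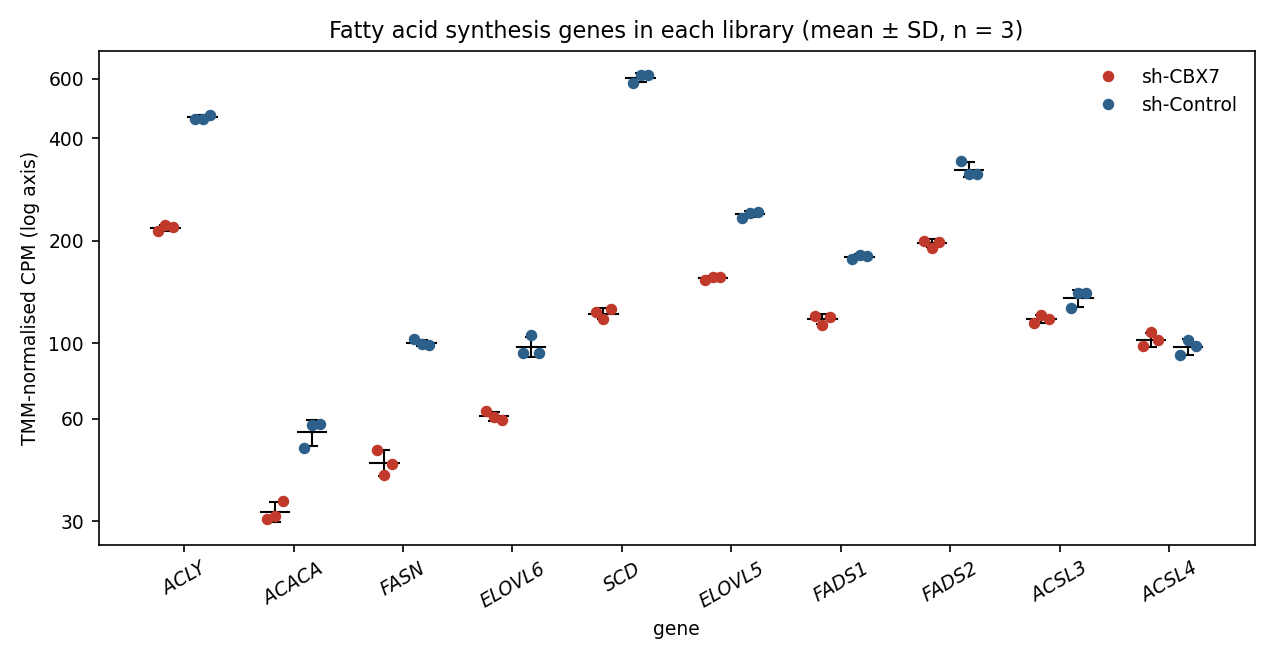
TMM-normalised CPM of the 10 genes in each library, on a log axis, in the order of the pathway, with sh-CBX7 in red left of sh-Control in blue. Points are libraries and black lines give the mean ± SD of 3. The groups are apart for every gene but ACSL4, and the gap is widest for SCD.

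The 3 enzymes of palmitate synthesis were all lower in sh-CBX7. ACLY (ENSG00000131473; GRCh38 chromosome 17, 41866908 to 41930542, minus strand) had 214.1, 223.1 and 219.6 CPM in sh-CBX7, against 456.7, 457.0 and 470.3 CPM in sh-Control. Every sh-CBX7 library lay below every sh-Control library, and the log2 fold change was -1.08 (SE 0.05), or 2.11-fold lower. FASN (ENSG00000169710; chromosome 17, 82078333 to 82098332, minus strand) had 48.6, 41.0 and 44.2 CPM in sh-CBX7, against 102.8, 99.4 and 98.6 CPM in sh-Control.

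The FASN groups were likewise apart, with a log2 fold change of -1.17 (SE 0.07). ACACA, the carboxylase that commits acetyl-CoA to fatty acids (ENSG00000278540; chromosome 17, 37084988 to 37406818, minus strand), had 30.5, 31.0 and 34.4 CPM in sh-CBX7, against 49.3, 57.4 and 57.9 CPM in sh-Control. Its log2 fold change was -0.78 (SE 0.08). The lowest ACACA value of sh-Control was that of replicate 1, which still lay above all 3 sh-CBX7 libraries.

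SCD, which places the first double bond in stearate and palmitate (ENSG00000099194; chromosome 10, 100347124 to 100364834, plus strand), had 123.3, 117.6 and 126.2 CPM in sh-CBX7, against 581.7, 613.3 and 615.1 CPM in sh-Control. The log2 fold change was -2.30 (SE 0.06), so its level was 4.93-fold lower in sh-CBX7. Of the 14573 tested genes, 23 (0.158%) had a lower log2 fold change than SCD, while 309 had a lower one than FASN and 408 than ACLY. SCD was the 1687th most abundant tested gene by CPM in sh-CBX7 and the 223rd in sh-Control. Its pseudogene SCDP1, which could take reads of a near-identical copy, had 0 counts in the 3 sh-CBX7 libraries and 1 count in the sh-Control libraries together.

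The desaturases of polyunsaturated fatty acids were lower as well. FADS2, the delta-6 desaturase (ENSG00000134824; chromosome 11, 61792980 to 61867354, plus strand), had 200.3, 190.8 and 199.2 CPM in sh-CBX7, against 343.2, 314.9 and 313.9 CPM in sh-Control, a log2 fold change of -0.72 (SE 0.06). FADS1, the delta-5 desaturase (ENSG00000149485; 61799625 to 61829318, minus strand), had 120.4, 113.3 and 119.8 CPM in sh-CBX7, against 177.0, 182.1 and 180.8 CPM in sh-Control, a log2 fold change of -0.61 (SE 0.06). Neither gene's groups overlapped. The spans of these genes overlap on opposite strands, and 490 exonic bases are shared, 4.79% of those of FADS1 and 4.44% of those of FADS2 in GENCODE 29. Whether the counting used strand is not given in the sources used here, so reads of the shared bases are uncertain. ACSL4 shares 1.22% of its exonic bases with KCNE5, ACSL3 shares 1.41% and ACLY 2.99% with an antisense gene that had 2 counts or fewer in any library, FADS2 shares 0.444% with FEN1, and SCD and FASN overlap no other gene. The ratio of FADS1 to FADS2, per kilobase, was 0.645 ± 0.0045 in sh-CBX7 and 0.600 ± 0.038 in sh-Control (SD, n = 3 each). Its values did not overlap, but the lowest and highest sh-Control ratios (0.556 and 0.623) were further apart than 0.623 was from the lowest sh-CBX7 ratio (0.640).

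Both elongases were lower by similar amounts. ELOVL6, which extends palmitate to stearate (ENSG00000170522; chromosome 4, 110045846 to 110199199, minus strand), had 63.1, 60.7 and 59.5 CPM in sh-CBX7, against 93.9, 105.7 and 93.9 CPM in sh-Control, a log2 fold change of -0.68 (SE 0.07). ELOVL5, which extends polyunsaturated chains (ENSG00000012660; chromosome 6, 53267398 to 53349179, minus strand), had 153.2, 156.5 and 157.1 CPM in sh-CBX7, against 233.9, 241.2 and 243.5 CPM in sh-Control, a log2 fold change of -0.62 (SE 0.05). The groups were apart for both. The ratio of SCD to ELOVL6 per kilobase was 2.73 ± 0.14 in sh-CBX7 and 8.41 ± 0.51 in sh-Control, and the values were apart. That of ELOVL5 to ELOVL6 was 4.88 ± 0.21 in sh-CBX7 and 4.70 ± 0.30 in sh-Control, with overlapping values (SD, n = 3 each).

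The acyl-CoA synthetases differed least. ACSL3, found on lipid droplets and the endoplasmic reticulum (ENSG00000123983; chromosome 2, 222860934 to 222944639, plus strand), had 114.9, 121.4 and 118.1 CPM in sh-CBX7, against 126.9, 140.3 and 140.5 CPM in sh-Control. These values were apart by a small gap, and the log2 fold change was -0.20 (SE 0.06). ACSL4, which prefers arachidonate and is known for its part in ferroptosis (ENSG00000068366; chromosome X, 109624244 to 109733403, minus strand), had 97.96, 107.8 and 102.0 CPM in sh-CBX7, against 92.1, 102.5 and 98.4 CPM in sh-Control. Its groups overlapped, with a log2 fold change of 0.07 (SE 0.06). The ratio of ACSL3 to ACSL4 per kilobase was 1.02 ± 0.021 in sh-CBX7 and 1.23 ± 0.029 in sh-Control (SD, n = 3 each).

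**Figure D2:**
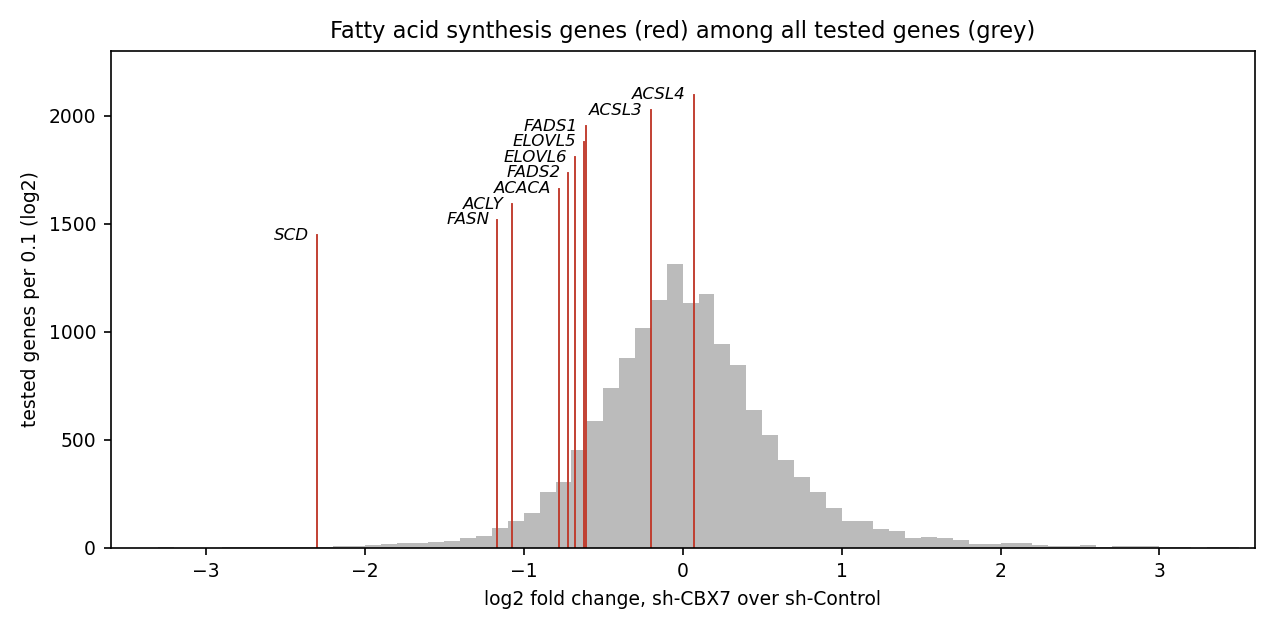
Number of tested genes per 0.1 of log2 fold change (grey, sh-CBX7 over sh-Control), with the 10 genes as red lines whose heights carry no value. SCD lies at -2.30 in the lower tail, 8 genes lie between -1.17 and -0.20, and ACSL4 lies at 0.07. Genes beyond ±3.6 are off the axis.

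Compared per kilobase of gene length as deposited, SCD was the third of the 10 in sh-CBX7 and the most abundant in sh-Control. Its mean level was 22.8 ± 0.821 CPM per kilobase in sh-CBX7 and 112.5 ± 3.50 in sh-Control (SD, n = 3 each). In sh-CBX7 the order was ACLY, ELOVL5, SCD, FADS2, ACSL3, ACSL4, FADS1, ELOVL6, FASN and ACACA, with means from 41.96 to 2.46 CPM per kilobase, and the values of ACLY and ELOVL5 overlapped, as did those of ACSL3 and ACSL4. In sh-Control the order was SCD, ACLY, ELOVL5, FADS2, ACSL3, FADS1, ACSL4, ELOVL6, FASN and ACACA, with means from 112.5 to 4.22 CPM per kilobase, and the values of ACSL3 and FADS1 overlapped, as did those of ACSL4 and ELOVL6. The deposited length counts all exons of a gene, so a gene with long rarely used exons reads low on this scale. Libraries of a group agreed closely: the coefficient of variation of CPM over 3 libraries had a median of 3.18% in sh-CBX7 and 4.12% in sh-Control for the 10 genes. For the 4604 tested genes with a mean CPM at least that of ACACA it was 3.88% in sh-CBX7 and 5.52% in sh-Control.

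**Figure D3:**
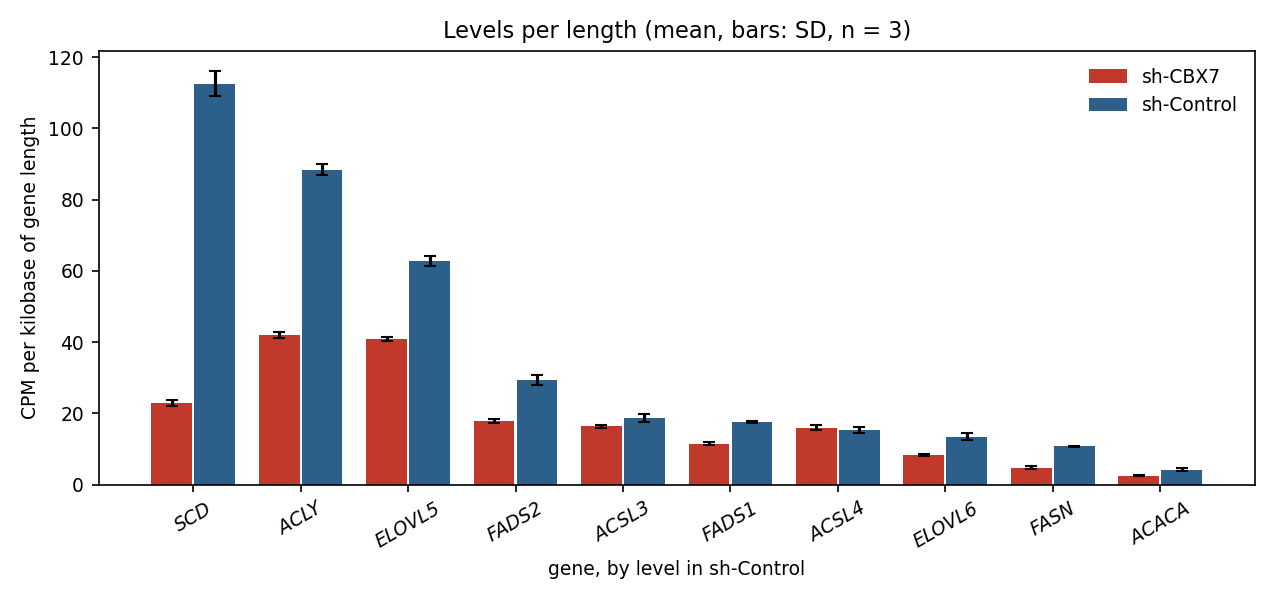
Mean CPM per kilobase of gene length with SD (n = 3 libraries), sh-CBX7 in red left of sh-Control in blue, genes ordered by the sh-Control level. SCD stands at 22.8 in sh-CBX7 and 112.5 in sh-Control, and FASN and ACACA are the lowest in both groups.

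Promoter windows of RefSeq on GRCh38.p14, from 250 bases before to 50 after an annotated start, were found for 9 of the 10 genes in 13 windows, and FASN had no entry. They are shown because most of these genes were lower together. The SCD window (chr10:100346983-100347282, plus strand), the first listed of the ACLY windows (chr17:41918973-41919272, minus strand) and that of ELOVL5 (chr6:53348901-53349200, minus strand) come from genes that were lower, and that of ACSL4 (chrX:109733208-109733507, minus strand) from the gene that was not. Capitals mark CCAAT, the box that NF-Y binds, and CACGTG, an E-box, on either strand, so CCAAT on the other strand reads ATTGG. Each runs in the direction of transcription.
SCD: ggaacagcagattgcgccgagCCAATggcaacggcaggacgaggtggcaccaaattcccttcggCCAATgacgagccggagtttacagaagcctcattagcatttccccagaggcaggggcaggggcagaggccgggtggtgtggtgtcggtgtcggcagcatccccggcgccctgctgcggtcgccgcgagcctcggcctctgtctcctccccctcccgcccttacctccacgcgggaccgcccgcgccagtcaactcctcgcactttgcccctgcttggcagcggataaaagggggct
ACLY: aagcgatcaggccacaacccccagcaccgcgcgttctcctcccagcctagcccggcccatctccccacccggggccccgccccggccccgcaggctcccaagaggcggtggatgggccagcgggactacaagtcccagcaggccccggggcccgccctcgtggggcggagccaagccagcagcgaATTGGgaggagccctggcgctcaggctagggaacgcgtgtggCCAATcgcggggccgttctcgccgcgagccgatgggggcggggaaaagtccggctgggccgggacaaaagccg
ELOVL5: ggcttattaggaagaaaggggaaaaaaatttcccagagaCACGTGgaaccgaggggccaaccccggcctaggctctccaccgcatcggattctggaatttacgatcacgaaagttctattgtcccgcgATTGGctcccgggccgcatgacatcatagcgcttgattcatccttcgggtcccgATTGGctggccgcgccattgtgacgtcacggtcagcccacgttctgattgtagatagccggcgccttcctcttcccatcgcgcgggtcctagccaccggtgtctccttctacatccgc
ACSL4: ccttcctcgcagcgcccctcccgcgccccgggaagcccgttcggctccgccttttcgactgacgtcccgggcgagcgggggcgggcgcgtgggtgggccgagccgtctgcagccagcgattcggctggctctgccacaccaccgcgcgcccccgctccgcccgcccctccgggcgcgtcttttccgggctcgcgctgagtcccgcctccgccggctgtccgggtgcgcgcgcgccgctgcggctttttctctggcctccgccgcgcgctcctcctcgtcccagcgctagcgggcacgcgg

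CCAAT was read on both strands in 8 of the 13 windows, those of SCD, ACACA, ACLY, ELOVL5, FADS2 and ACSL3, and in 34.6% of all 35116 promoter windows. The SCD window holds it at -229 and -186 bases from the start. The ACLY window holds it at -65 and -23, and the ELOVL5 window at -122 and -68. The ACSL4 window holds none, and neither do the windows of ELOVL6 and FADS1, although both of those genes were lower. TCACNCCAC, the core of a sterol regulatory element, was in 0 of the 13 windows and in 1.13% of all windows. CACGTG was in the ELOVL5 window alone of the 13 and in 7.26% of all windows, while GGGCGG, a GC box, was in 10 of the 13 and in 45.0% of all windows. Windows of 1 gene can overlap, the motifs searched do not contain one another, and a match or its absence says nothing of binding.

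The regulators of the pathway were examined next, since SREBP factors activate many of these genes. SREBP activity was not measured, and the part of these regulators in the results was not tested. SREBF1, the gene of the SREBP form most tied to fatty acid synthesis, had 47.9, 42.5 and 48.6 CPM in sh-CBX7, against 85.6, 75.2 and 83.7 CPM in sh-Control. It fell by 0.81 on the log2 scale (SE 0.07, edgeR adjusted p = 3.04e-09). SREBF2, the form most tied to cholesterol, had 170.4, 166.3 and 167.5 CPM in sh-CBX7, against 232.8, 228.8 and 229.9 CPM in sh-Control, and fell by 0.46 (SE 0.05, edgeR adjusted p = 2.19e-07). INSIG1, which retains the SREBP escort SCAP in the endoplasmic reticulum, had 291.1, 280.5 and 266.5 CPM in sh-CBX7, against 154.2, 142.7 and 159.5 CPM in sh-Control, and rose by 0.88 (SE 0.06, edgeR adjusted p = 2.89e-11). INSIG2 rose by 0.41 (SE 0.08, edgeR adjusted p = 0.000117), whereas SCAP had -0.04 (SE 0.07, edgeR adjusted p = 0.628). PPARG, a nuclear receptor of lipid storage, rose to 54.0 ± 5.11 CPM in sh-CBX7, against 29.97 ± 1.67 CPM in sh-Control (SD, n = 3 each; log2 fold change 0.85, edgeR adjusted p = 9.04e-09). Of 19 tested transcriptional regulators, 5 were called higher (INSIG1, INSIG2, PPARG, PPARA and the SREBP protease MBTPS1) and 5 lower (SREBF1, SREBF2, the SREBP protease MBTPS2 and the nuclear receptors NR1H3 and RXRA), near the shares over all genes.

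Among 12 tested regulators that act on the enzymes, directly or through other proteins, 6 were called higher and 2 lower. Over all tested genes 26.1% were called higher and 27.2% lower, and the list counts that follow stand beside the same shares. TRIB3, a pseudokinase that in mouse fat brings ACACA to a ubiquitin ligase, rose by 0.90 (SE 0.06, edgeR adjusted p = 2.25e-11). AMP-activated kinase inhibits ACACA by phosphorylation. Its subunit PRKAG2 rose by 0.64, while its subunit PRKAB1 fell by 0.67. Of its other listed subunits, named after their values were seen, PRKAA2 and PRKAB2 were called higher (0.52 and 0.33) and PRKAG1 lower (-0.30). PRKAA1 was not called (0.12, edgeR adjusted p = 0.112). AKT1, a kinase of insulin signalling, rose by 0.51.

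The genes listed as suppliers of NADPH, which FASN and the elongation cycle use, were called lower in 5 of 8 tested genes and higher in 1, ME3, a mitochondrial malic enzyme (1.04 on the log2 scale, edgeR adjusted p = 0.0136). The call of ME3, which was named after its value was seen, was lost without sh-CBX7 replicate 3 and without sh-Control replicate 2. IDH2, the mitochondrial NADP-dependent isocitrate dehydrogenase, had 39.4, 41.7 and 41.1 CPM in sh-CBX7, against 224.6, 211.9 and 213.2 CPM in sh-Control, and fell by 2.41 on the log2 scale (SE 0.06, edgeR adjusted p = 1.89e-18). PGD, an NADPH-producing enzyme of the pentose phosphate pathway, fell by 0.69. ME2, which fell by 0.48, is a mitochondrial malic enzyme that mainly uses NAD rather than NADP, so it is listed here but is not chiefly a source of NADPH. The groups were apart for all 3.

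Genes around acetyl-CoA and malonyl-CoA were called in both directions, 3 higher and 3 lower of 10. ACSS2, which makes acetyl-CoA from acetate, fell by 0.51 (SE 0.09, edgeR adjusted p = 3.09e-05). MLYCD, the decarboxylase that breaks malonyl-CoA down, had 16.5, 13.2 and 14.1 CPM in sh-CBX7, against 7.87, 7.81 and 6.87 CPM in sh-Control, and rose by 0.96 (SE 0.13, edgeR adjusted p = 1.17e-06). ACOT7, an acyl-CoA thioesterase, rose by 0.41. OLAH, a thioesterase that works with FASN and the third gene called higher, had 14, 27 and 27 counts in sh-CBX7 and 4, 3 and 3 counts in sh-Control. It passed the filter on low counts only through sh-CBX7, so its log2 fold change of 2.68 (SE 0.50) is a description and supports nothing.

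Other enzymes of elongation, desaturation and activation were called in both directions. Of 10 tested elongases and elongation cycle enzymes, 1 was called higher and 3 lower. TECR, the reductase that closes each elongation cycle, fell to 110.3 ± 4.08 CPM in sh-CBX7, against 253.5 ± 23.7 CPM in sh-Control (log2 fold change -1.20), ELOVL7, a long-chain elongase, fell by 1.10, the dehydratase HACD2 fell by 0.39, and ELOVL1, an elongase of saturated very long chains, rose by 0.25. Of 6 tested desaturases and electron donors, 1 was called higher and 1 lower: CYB5R3, the cytochrome b5 reductase, at 0.20 and CYB5B, a cytochrome b5, at -0.25. SCD5, the second human delta-9 desaturase, had 16.9, 16.1 and 19.3 CPM in sh-CBX7, against 20.6, 17.5 and 18.7 CPM in sh-Control, with overlapping groups and -0.12 on the log2 scale (SE 0.11, edgeR adjusted p = 0.371). FADS3, beside FADS2 on chromosome 11, had 0.15 on the log2 scale (SE 0.07, edgeR adjusted p = 0.0884), but was called without sh-Control replicate 1 (0.25, edgeR adjusted p = 0.000395). Of 9 tested acyl-CoA synthetases, 1 was called higher and 5 lower. The fatty acid transport proteins SLC27A1 and SLC27A4 had -0.94 and -0.84 on the log2 scale, ACSL1 -0.46 and ACSL5 0.69.

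**Figure D4:**
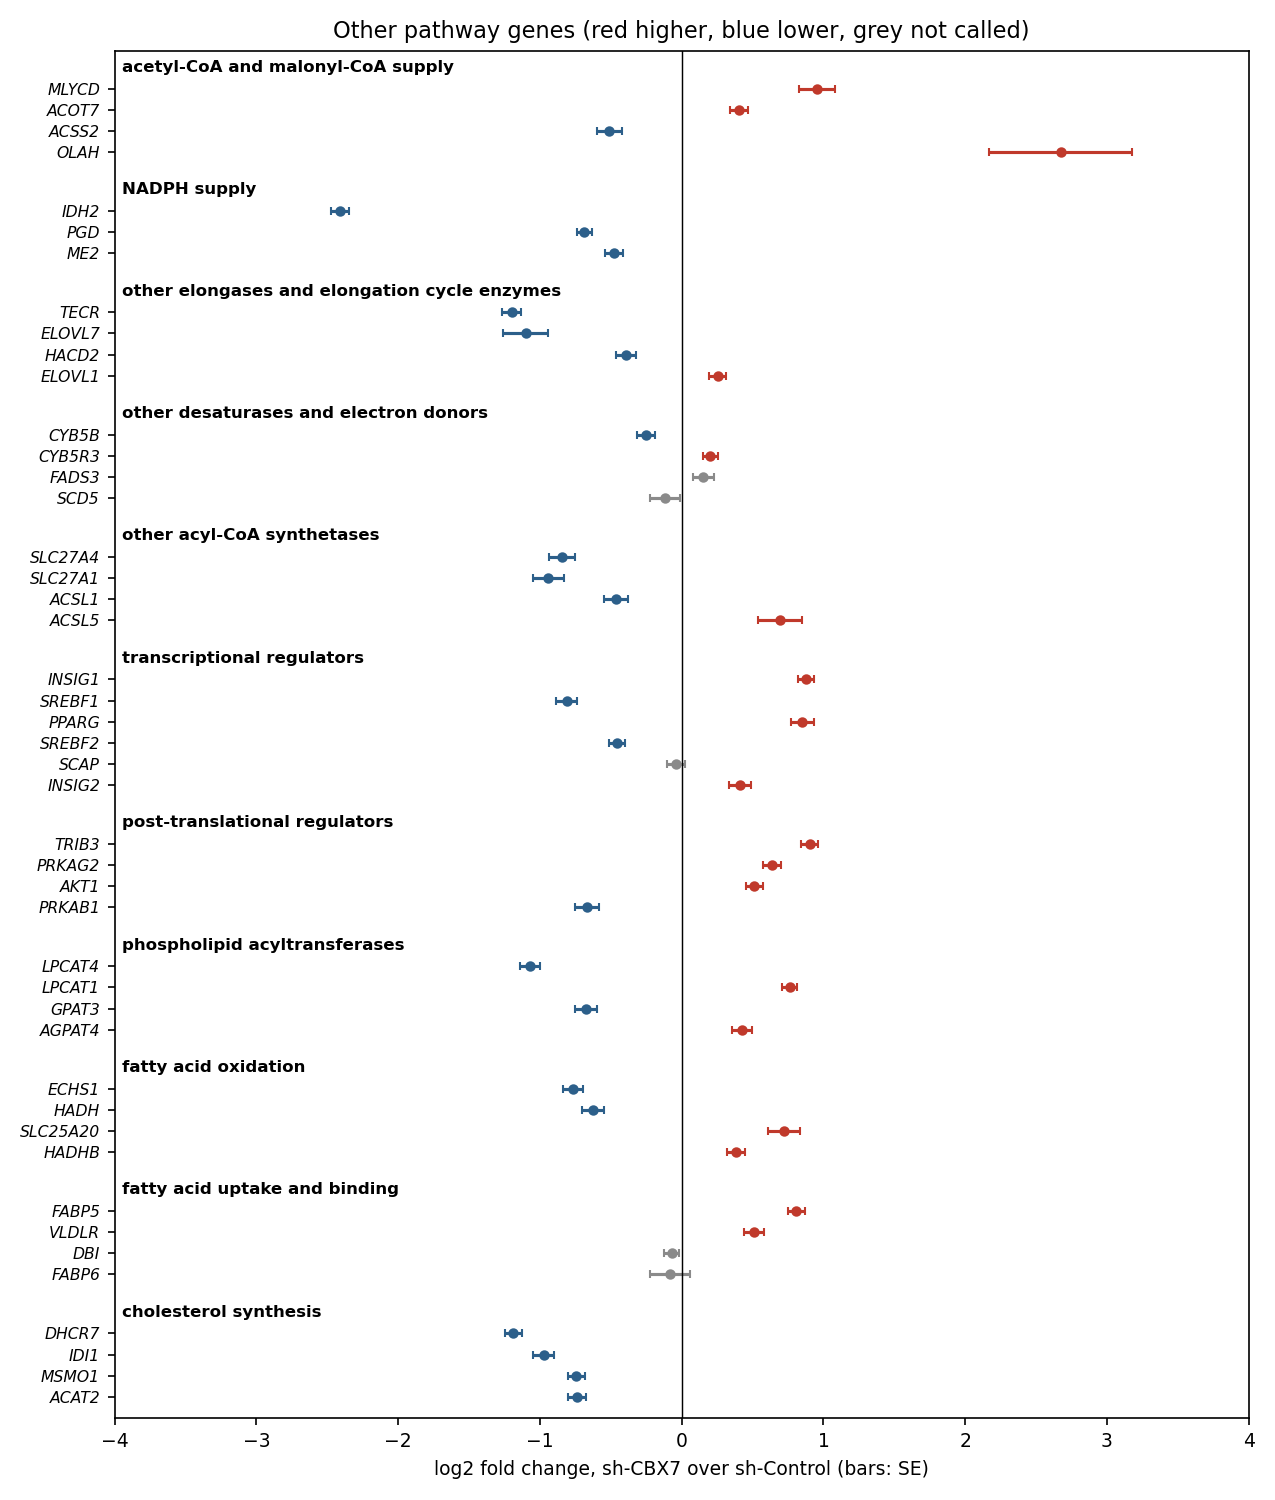
Log2 fold change, sh-CBX7 over sh-Control, with SE, for up to 4 genes of each list with the smallest p and for the SREBP controllers. Red genes were called higher, blue lower and grey neither (edgeR adjusted p below 0.05). IDH2 at -2.41 lies lowest, and OLAH at 2.68, which passed the filter on low counts only through sh-CBX7, lies highest with the widest bar.

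Downstream, 9 of 16 tested phospholipid acyltransferases were called lower and 4 higher. LPCAT4 had a log2 fold change of -1.07 and GPAT3 of -0.68, whereas LPCAT1, which makes disaturated phosphatidylcholine, had 0.76 and AGPAT4 0.43. LPCAT3, named after its value was seen because it acts with ACSL4 on arachidonate, fell to 8.25 ± 0.46 CPM in sh-CBX7, against 13.2 ± 0.57 CPM in sh-Control (SD, n = 3 each; log2 fold change -0.68, edgeR adjusted p = 4.03e-05). Fatty acid oxidation genes were called higher in 5 and lower in 4 of 17, with the carnitine carrier SLC25A20 at 0.72, the trifunctional protein subunit HADHB at 0.38, the hydratase ECHS1 at -0.77 and the dehydrogenase HADH at -0.63. Of 5 tested genes listed under uptake and binding, 2 were called higher and 0 lower by edgeR, DESeq2 and limma voom. At an unadjusted p below 0.05, 0 of the 5 were lower. This list leaves out the fatty acid transport proteins SLC27A1 and SLC27A4, which edgeR called lower and which are counted with the acyl-CoA synthetases. FABP5, a fatty acid binding protein, rose by 0.81 and the lipoprotein receptor VLDLR by 0.51, while DBI had -0.07 (edgeR adjusted p = 0.29) and FABP6 -0.08 (edgeR adjusted p = 0.635). LPL, the remaining tested gene, named after its value was seen, had -0.03 (edgeR adjusted p = 0.957). Its mean was low, at 1.03 CPM in sh-CBX7 and 1.05 CPM in sh-Control.

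**Figure D5:**
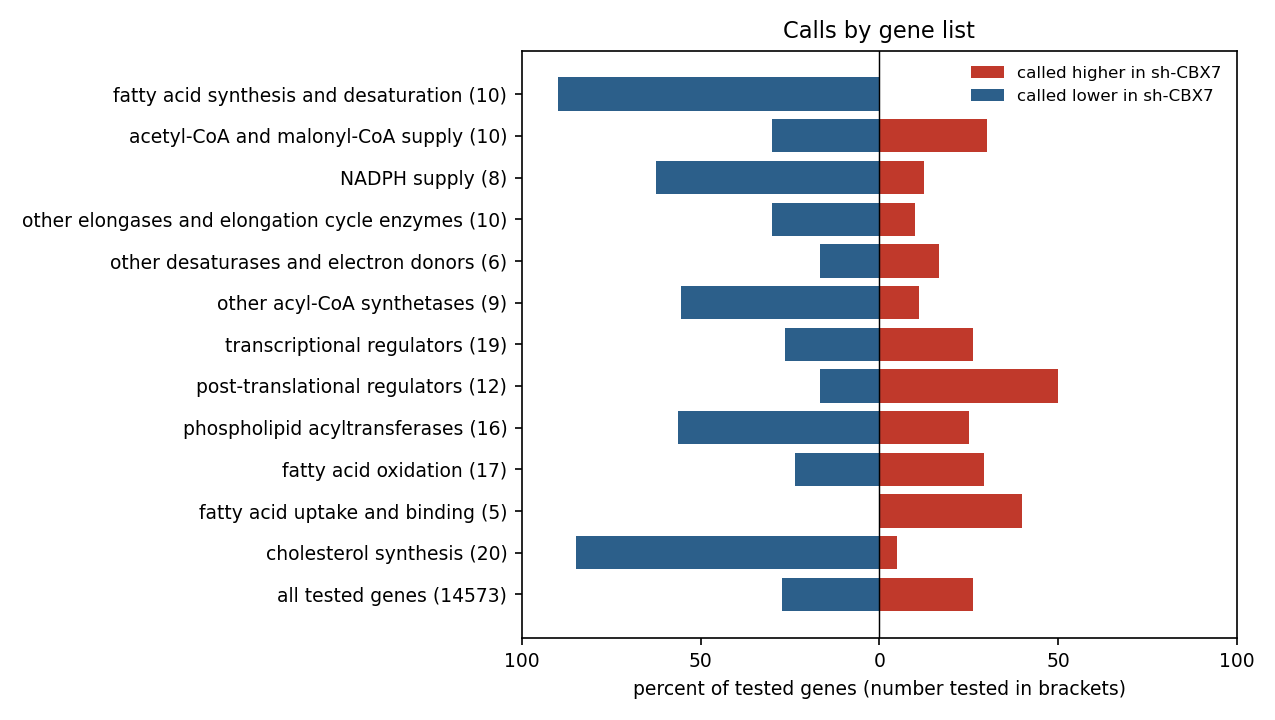
Percent of the tested genes of each list called lower (blue, to the left) and higher (red, to the right) in sh-CBX7 by edgeR, with the number tested in brackets. Over all tested genes 27.2% were lower and 26.1% higher; the first bar is a description, since its genes were chosen with this contrast known.

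Over the 112 tested fatty acid genes outside the 10, 37 (33.0%) were called lower and 29 (25.9%) higher, with a median log2 fold change of 0.001. The 29 include OLAH, which passed the filter on low counts only through sh-CBX7. Cholesterol synthesis, the other branch under SREBP control, had 17 of 20 genes called lower and 1 higher (PMVK, named after its value was seen, whose call was lost without sh-CBX7 replicate 2, sh-CBX7 replicate 3 or sh-Control replicate 2), with a median of -0.54. Its members DHCR7, IDI1, MSMO1 and ACAT2 had log2 fold changes of -1.19, -0.97, -0.74 and -0.74. These lists, too, were drawn up with results of the series known.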

How the data were processed

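Per the labels' protocols, poly-A RNA was sequenced from directional libraries. The deposited table holds raw read counts per gene, without normalization, and a gene length in bases. The submitters' processing notes name FastQC, Trimmomatic, HISAT2 2.0.5, featureCounts 1.5.0-p3 and the build hg19; their settings are not given in the sources used here. Since 58724 of the 58735 genes had the start and end of GENCODE 29, positions are given on GRCh38. Columns named siCBX7 were matched to the sh-CBX7 labels by target and replicate number.

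Counts were filtered with filterByExpr, TMM-normalised and compared with the edgeR 4.0.16 quasi-likelihood test (R 4.3.3), unpaired, over 14573 genes, with Benjamini-Hochberg adjustment over all of them and a threshold of 0.05. SE is the absolute log2 fold change over the root of the F statistic. The fit was tested on simulated data in which 200 genes were changed. In the real data 7766 genes were called, so that test does not vouch for the normalization or the calls here.

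Between libraries of a group the chi-square per gene was 2.85 to 9.23, above sampling noise. The highest values, 9.23 and 5.78, involved sh-Control replicate 1. Each library was counted as 1 sample, but this spread cannot show whether replicates were grown separately, since library preparation also adds spread. Alternatives were other normalizations and filters, DESeq2 1.42.0, limma voom (limma 3.58.1), a replicate block and leaving out each library. The members and lists were chosen with earlier results of these data known. Genes outside the 10 are named as up to 4 per list by smallest p, plus the SREBP controllers; 1 gene that this rule names is not reported here.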

Additional observations from a re-analysis of the deposited data

How the results depend on the processing

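Of 1217 values of 87 results recomputed under 14 alternatives, 1205 kept their call (for counts, stayed within 1.5 times) and 0 called values changed sign. Of values near 0 that were not called, SCAP (-0.09 to 0.01) and FABP6 (-0.30 to 0.02) each changed sign under 2 alternatives. Under every alternative 9 of the 10 fatty acid synthesis genes were called lower and 0 higher, and their median log2 fold change lay between -0.73 and -0.65. SCD ranged from -2.33 to -2.25, FASN from -1.23 to -1.11, ACSL3 from -0.25 to -0.15 and ACSL4 from 0.03 to 0.12. The median of all tested genes lay between -0.008 and 0.043 and changed sign under 7. Over all genes 3398 to 4312 were called higher and 3521 to 4126 lower, and without 1 library 3398 to 3953 and 3584 to 4082. FADS3 gained a call with upper quartile normalization (0.20, edgeR adjusted p = 0.0218), the replicate block (0.15, edgeR adjusted p = 0.0135) and without sh-Control replicate 1 (0.25, edgeR adjusted p = 0.000395); the cause was not tested. The other 9 values were list counts that moved by 1 gene. OLAH gave no value with the filter at 1 CPM in 3 libraries, which it did not pass.

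With the replicate block, 3972 genes were called higher and 4126 lower, in place of 3799 and 3967. Same-numbered libraries deviated together at correlations of 0.055, 0.061 and 0.035, and differently numbered ones at -0.047 to -0.009. The best match of every library was thus the one sharing its number, a hint from the data and not from the design. Deviations were taken from the mean of each group, so the negative values follow in part from the positive ones. All values were small, and whether such a pattern arises by chance was not tested. Depth limits the lowest genes, with an SE of 0.50 for OLAH against 0.05 for ACLY.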

Other observations

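The genes beside the 10 fatty acid synthesis genes were read for their position alone, as the nearest tested gene on each side. Of these 19 genes, 3 were called higher, 6 lower and 10 neither by edgeR, with a median log2 fold change of -0.16. Over all tested genes 26.1% were called higher and 27.2% lower, and nothing is read from the counts of neighbours. OLMALINC, a long noncoding RNA that starts 8679 bases after SCD on the same strand, fell by 0.84 on the log2 scale (SE 0.13, edgeR adjusted p = 9.09e-06), while BLOC1S2, 60412 bases before SCD on the other strand, rose by 0.40 (SE 0.09, edgeR adjusted p = 0.000726).

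Around FADS1 and FADS2 the genes on the low-coordinate side fell, and those on the other side did not. MYRF, a membrane-bound transcription factor, had -0.996 on the log2 scale (SE 0.08, edgeR adjusted p = 1.03e-09), TMEM258, a subunit of the oligosaccharyltransferase, -0.62 (SE 0.07, edgeR adjusted p = 2.80e-07) and FEN1, a flap nuclease of DNA replication, -0.32 (SE 0.07, edgeR adjusted p = 0.00029). On the other side FADS3 had 0.15 (SE 0.07, edgeR adjusted p = 0.0884) and RAB3IL1 rose by 0.60 (SE 0.17, edgeR adjusted p = 0.00519). FEN1 overlaps FADS2 and shares 49 exonic bases with it. The span of TMEM258 overlaps those of MYRF and FEN1 on the other strand. Whether the counting used strand is not given, so these falls may not be separate. The order along the chromosome was noticed after the values were seen.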
